A study of Mus musculus with 9 samples.

Results

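The 47 genes described here encode mouse chromatin remodelling enzymes and their partner subunits, together with the enzymes that write, maintain or oxidise DNA methylation. They were chosen by name, and every probe that the array files assign to one of these names, or to an older alias, was taken. This gave 105 of the 41174 probes on the array. A probe was tested where 1 or more groups had it well above background throughout, and 100 probes of 45 genes passed this filter, against 22355 probes and 12046 genes in the whole data set. Smarca1, an ISWI-type ATPase, and Smarcd3, a SWI/SNF subunit, were not well above background on any array and were not tested.

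RNA was taken from mouse pro-B cells of C57Bl/6 origin that had been transformed with Abelson murine leukaemia virus (A-MuLV). All cells carried Ebf1fl/fl;RERTCre, a floxed allele of the B-lineage transcription factor Ebf1 with a tamoxifen-inducible Cre recombinase, and all were given 2 µM 4-hydroxytamoxifen to delete the endogenous gene. EBF1ΔC cells received a retrovirus (pmys-EBF1DC-IRES-GFP) for EBF1 without its C-terminal domain, and EBF1wt cells received pmys-EBF1wt-IRES-GFP for the full-length protein. Both were transduced 24 h before tamoxifen, sorted for GFP at day 5 after it and used more than 2 weeks later. Mock cells were mock-transduced and harvested at day 4 after tamoxifen, so all groups had been treated to delete their own Ebf1, and Mock differed from the other groups in time since deletion, transduction and sorting. Each group had 3 arrays. For EBF1wt replicate 3, tamoxifen is in the description but not in the source name.

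Remodelling complexes use ATP to slide, eject or exchange nucleosomes. SWI/SNF complexes carry Smarca4 (BRG1) or Smarca2 (BRM) as the motor and open chromatin at promoters and enhancers. NuRD complexes pair a Chd3 or Chd4 motor with the histone deacetylases Hdac1 and Hdac2. Dnmt3a and Dnmt3b place new methyl groups on DNA, Dnmt1 copies them after replication with the help of Uhrf1, and the TET enzymes oxidise them. In early B cells, promoters bound by EBF1, such as that of Cd79a, lose DNA methylation and become accessible, which in cell line studies involved SWI/SNF and was opposed by NuRD.

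The 75th percentile of signal intensity lay between 384 and 507.7 on the 9 arrays, and the share of probes well above background was 51.4 to 53.4% in EBF1ΔC and 50.7 to 51.1% in EBF1wt, against 54.3 to 56.9% in Mock. The single Ebf1 probe used had log2 signals, relative to the array's 75th percentile, of 3.81, 3.74 and 3.85 in EBF1ΔC and 3.17, 2.86 and 3.15 in EBF1wt, against 1.73, 1.47 and 1.17 in Mock. Whether it lies within the deleted part is not given in the sources used here. All Mock arrays were scanned on 1 day and all EBF1ΔC and EBF1wt arrays on another, on other slides, so that slide and scan day cannot be told apart from the contrast with Mock. Of 15 pro-B markers, 13 were well above background on all arrays of each group, and Kit was so on none. Their summed linear level was 992 to 1033 times the 75th percentile in EBF1ΔC and 973 to 1073 times in EBF1wt, against 307 to 318 times in Mock. The largest part in EBF1ΔC and EBF1wt was from Vpreb1, and the sum includes Ebf1 itself. Pax5 overlapped between Mock and both other groups. Dntt was lower than in Mock in EBF1wt but higher in EBF1ΔC. For 6 erythroid markers the sum was 2.41 to 5.33 in EBF1ΔC and 3.30 to 5.46 in EBF1wt, against 345 to 406 in Mock, mostly from Hbb-bt, with Alas2 not well above background on any array. For 5 mature B markers it was 5.07 to 8.05 in EBF1ΔC and 4.29 to 9.79 in EBF1wt, against 51.5 to 59.1 in Mock, and for 4 plasma cell markers 1.51 to 2.01 and 2.09 to 2.41, against 8.64 to 9.15 in Mock. The mature B sum in Mock was mostly from Cd22 and H2-Aa, and Ms4a1 overlapped between Mock and both other groups. The plasma cell sum in Mock was mostly from Jchain, while Sdc1 was lower in Mock and Prdm1 was well above background on no array. The part of these markers in the differences from Mock below was not tested. In bulk RNA, fewer cells of a type and less RNA per cell cannot be told apart. The labels do not say that replicates came from separate cultures, so the p-values reflect only how far these samples varied, which may be technical, and 3 arrays a group limit the precision.

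Most of the 45 genes differed from Mock in both EBF1ΔC and EBF1wt. In EBF1ΔC, 25 were higher and 8 lower than in Mock at an adjusted p under 0.05 (limma, two-sided, Benjamini-Hochberg over all genes, here and below), and 1 of each, Tet2 and Chd3, also changed by at least 2-fold. Over all genes 37.4% were higher and 26.8% lower in that comparison, and 6.25% were higher and 11.9% lower by at least 2-fold. In EBF1wt, 26 were higher and 9 lower than in Mock, with 3 of each past 2-fold, where 39.5% of all genes were higher and 27.1% lower, and 6.61% and 12.8% past 2-fold. The arrays did not overlap with Mock for 35 of the genes in EBF1ΔC and 38 in EBF1wt, and for 71.7% and 72.6% of all genes. The median log2 change of the 45 genes was 0.30 in EBF1ΔC and 0.41 in EBF1wt, against medians over all genes of 0.10 and 0.12. Both comparisons use the same Mock arrays, so their values are not independent. The direction of a call against Mock depends on the scaling: of all genes that passed, 58.3% were higher in EBF1ΔC and 59.3% in EBF1wt, but 84.8% and 87.1% when arrays were scaled to their median instead, which moved the median of all genes to 0.65 and 0.82. Set against the median of all genes, 33 of the 45 genes lay above it in EBF1ΔC and 30 in EBF1wt.

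**Figure D1:**
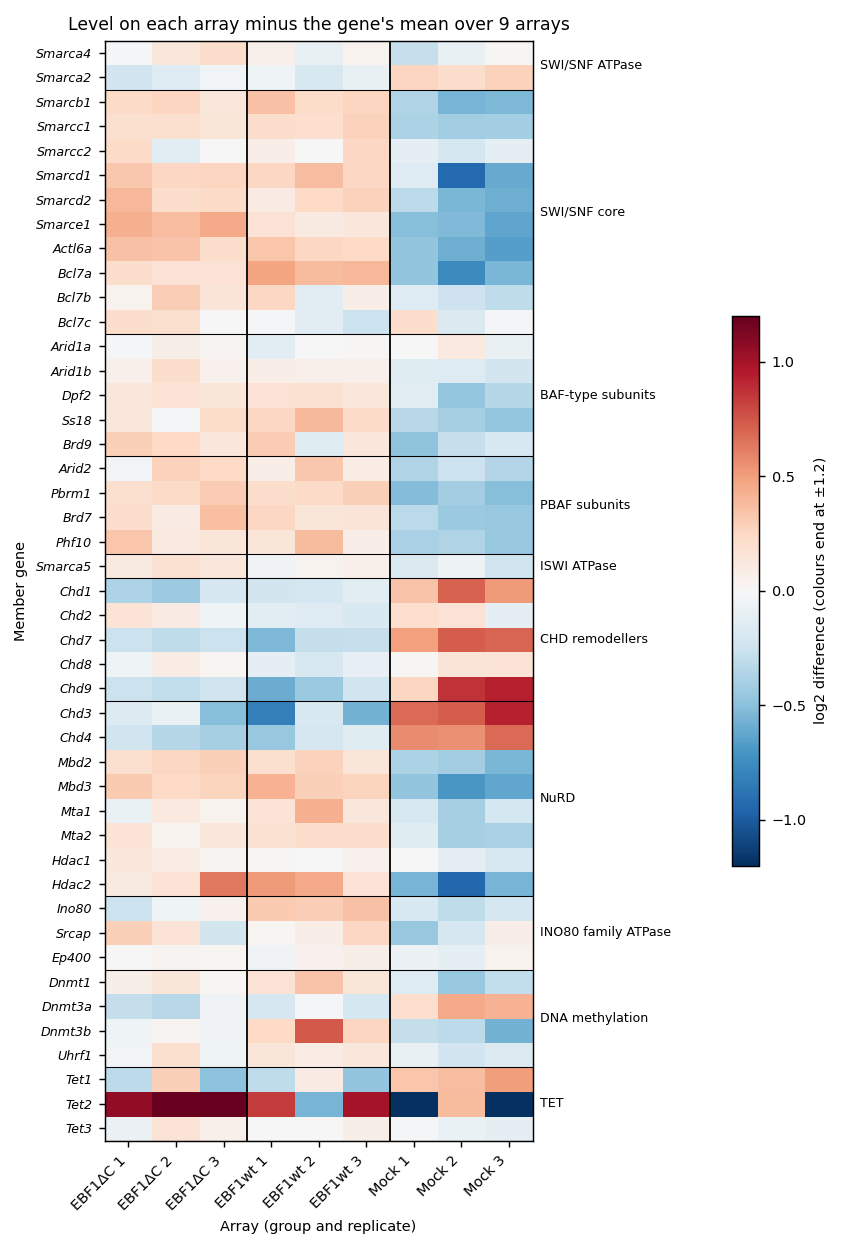
Log2 signal of each of the 45 genes (rows, grouped by role) on each of the 9 arrays (columns, EBF1ΔC, then EBF1wt, then Mock) relative to the gene's own mean over the arrays, with colours ending at 1.2 in either direction. Most SWI/SNF subunits have their higher signals in the EBF1ΔC and EBF1wt columns, and Chd1, Chd3, Chd4, Chd7 and Chd9 have theirs in the Mock columns.

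The SWI/SNF motors gave different answers at different probes. Smarca4 had 3 probes, all placed on its RefSeq mRNA and so exonic, on the plus strand of chromosome 9. At the probe of highest signal, which stands for the gene, its log2 signal was 6.19, 6.34 and 6.41 in EBF1ΔC and 6.26, 6.11 and 6.24 in EBF1wt, against 5.93, 6.12 and 6.22 in Mock. These ranges overlap, and the changes of 0.23 (SE 0.10, adjusted p = 0.0734) in EBF1ΔC and 0.12 (adjusted p = 0.324) in EBF1wt did not pass. At the 5′-most probe the values were 0.78, 0.81 and 0.94 in EBF1ΔC and 0.84, 0.50 and 0.82 in EBF1wt, against -0.53, -0.70 and -0.73 in Mock, with no overlap with Mock. That change was 1.497 (SE 0.11, adjusted p = 1.56e-05 over all probes) in EBF1ΔC and 1.37 (adjusted p = 2.32e-05) in EBF1wt, and at the 3′-most probe it was 1.32 and 1.21.

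Smarca2 went the other way on chromosome 19. All 3 of its exonic probes were lower than in Mock, by changes of -1.06, -1.84 and -0.39 from the 5′ to the 3′ end in EBF1ΔC and of -1.001, -1.66 and -0.36 in EBF1wt. Its middle probe read -2.38, -2.24 and -1.93 in EBF1ΔC and -1.995, -1.98 and -2.03 in EBF1wt, against -0.57, -0.17 and -0.30 in Mock, with no overlap with Mock (adjusted p = 1.44e-05 and 2.35e-05). The probe of highest signal was the 3′-most one, which fell by 0.39 (SE 0.08, adjusted p = 0.00252) in EBF1ΔC and by 0.36 (adjusted p = 0.00347) in EBF1wt, but was at 0.16 and 0.34 when arrays were scaled to their median, neither of which passed. The probes whose readings differed most are given below in lower case, because the middle Smarca4 and Smarca2 probes start or end in the same stretch of these related mRNAs. Capitals mark that shared stretch of 22 bases, of which 19 are identical.
Smarca4, 5′-most probe, chr9:21440131-21440190 (mm9, plus strand): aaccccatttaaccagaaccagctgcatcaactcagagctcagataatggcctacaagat
Smarca4, middle probe, chr9:21445519-21446917 (mm9, plus strand): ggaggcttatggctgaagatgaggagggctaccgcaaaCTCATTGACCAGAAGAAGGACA
Smarca2, middle probe, chr19:26728858-26728917 (mm9, plus strand): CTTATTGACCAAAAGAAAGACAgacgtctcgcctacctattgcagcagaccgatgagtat
The middle Smarca4 probe is 60 bases long but its placement spans 1399 bases, so that it crosses a splice junction. It gave the smallest change against Mock of the Smarca4 probes, and the middle Smarca2 probe gave the largest of its gene.

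The core subunits of SWI/SNF were mostly higher than in Mock. At the probes that stand for the genes, 8 of 10 measured were higher in EBF1ΔC and 8 in EBF1wt, and none was lower. Of all genes, 37.4% were higher in EBF1ΔC and 39.5% in EBF1wt, and 26.8% and 27.1% lower. The median log2 changes of the 10 genes were 0.73 and 0.69, against 0.10 and 0.12 over all genes. Bcl7a, a small subunit that binds the complex's nucleosome-facing side, had log2 signals of 3.85, 3.81 and 3.81 in EBF1ΔC and 4.11, 4.02 and 4.04 in EBF1wt, against 3.17, 2.88 and 3.09 in Mock. Neither group overlapped Mock, and the change was 0.78 (SE 0.09, adjusted p = 0.000106) in EBF1ΔC and 1.01 (SE 0.09, adjusted p = 2.43e-05) in EBF1wt.

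Actl6a (BAF53a), the actin-related subunit of proliferating cells, read 3.73, 3.72 and 3.59 in EBF1ΔC and 3.71, 3.63 and 3.61 in EBF1wt, against 2.90, 2.79 and 2.72 in Mock. All 6 EBF1 arrays were above all Mock arrays, with changes of 0.87 (SE 0.08, adjusted p = 3.59e-05) and 0.85 (adjusted p = 3.99e-05). Its other probe, on a sequence outside RefSeq, was lower in both by -0.32 (adjusted p = 0.0184 and 0.0176), and the mean of the 2 probes changed by 0.28 and 0.26. Smarce1 (BAF57), an HMG-box subunit, rose by 0.97 (adjusted p = 9.65e-06) in EBF1ΔC and by 0.69 in EBF1wt. Smarcd1 rose by 0.84 and 0.85, Smarcd2 by 0.76 and 0.68, Smarcb1, the SNF5 subunit lost in rhabdoid tumours, by 0.70 and 0.76, the scaffold subunit Smarcc1 by 0.58 and 0.63, and Bcl7b by 0.40 and 0.30. The other scaffold subunit Smarcc2 (0.17 and 0.25) and Bcl7c (0.13 and -0.14) did not pass in either comparison at their probes of highest signal. The other Smarcc2 probe was lower in both, by -0.51 (adjusted p = 0.00966) and -0.58 (adjusted p = 0.00494). A Bcl7c probe outside RefSeq was higher in both, by 0.88 (adjusted p = 0.000102) and 0.97 (adjusted p = 6.06e-05). The 5′-most Bcl7c probe was higher in EBF1ΔC, by 0.51 (adjusted p = 0.00653). Smarce1 depends on the probe: its other RefSeq probe gave 0.27 in EBF1ΔC and 0.21 in EBF1wt, its 3 probes on other sequences were between -0.85 and -0.12 in EBF1ΔC and between -1.13 and -0.42 in EBF1wt, and the mean over its probes was -0.0001 and -0.24.

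Subunits that divide the complex into types moved with the core. All 4 subunits of the PBAF type were higher in both comparisons, with median log2 changes of 0.62 in EBF1ΔC and 0.60 in EBF1wt. Of all genes, 37.4% were higher in EBF1ΔC and 39.5% in EBF1wt. Pbrm1, the polybromo subunit with several acetyl-lysine readers, rose by 0.73 (SE 0.07, adjusted p = 4.7e-05) in EBF1ΔC and by 0.72 (adjusted p = 4.53e-05) in EBF1wt, and all 4 of its probes were higher in both. Brd7 rose by 0.63 and 0.59, Phf10 by 0.60 and 0.60, and Arid2, the DNA-binding subunit, by 0.49 and 0.49. Of 5 BAF-type subunits, 4 were higher in both comparisons. These were Ss18 (0.51 and 0.69), Brd9 of the non-canonical complex (0.53 and 0.41), Dpf2 (0.46 and 0.47) and Arid1b (0.28 and 0.24). Arid1a, the alternative to Arid1b, changed by 0.02 and -0.05 and did not pass. Smarca5, the ISWI motor, changed by 0.30 (adjusted p = 0.00688) in EBF1ΔC and by 0.18 (adjusted p = 0.0568) in EBF1wt. The difference between these changes did not pass (adjusted p = 0.354). Of its other probes, the 2 nearest the 3′ end were higher in EBF1ΔC, by 0.69 (adjusted p = 0.00111) and 0.66 (adjusted p = 0.00364). In EBF1wt these 2 were higher by 0.74 (adjusted p = 0.000684) and 0.63 (adjusted p = 0.00431). The remaining Smarca5 probe did not pass in either.

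**Figure D2:**
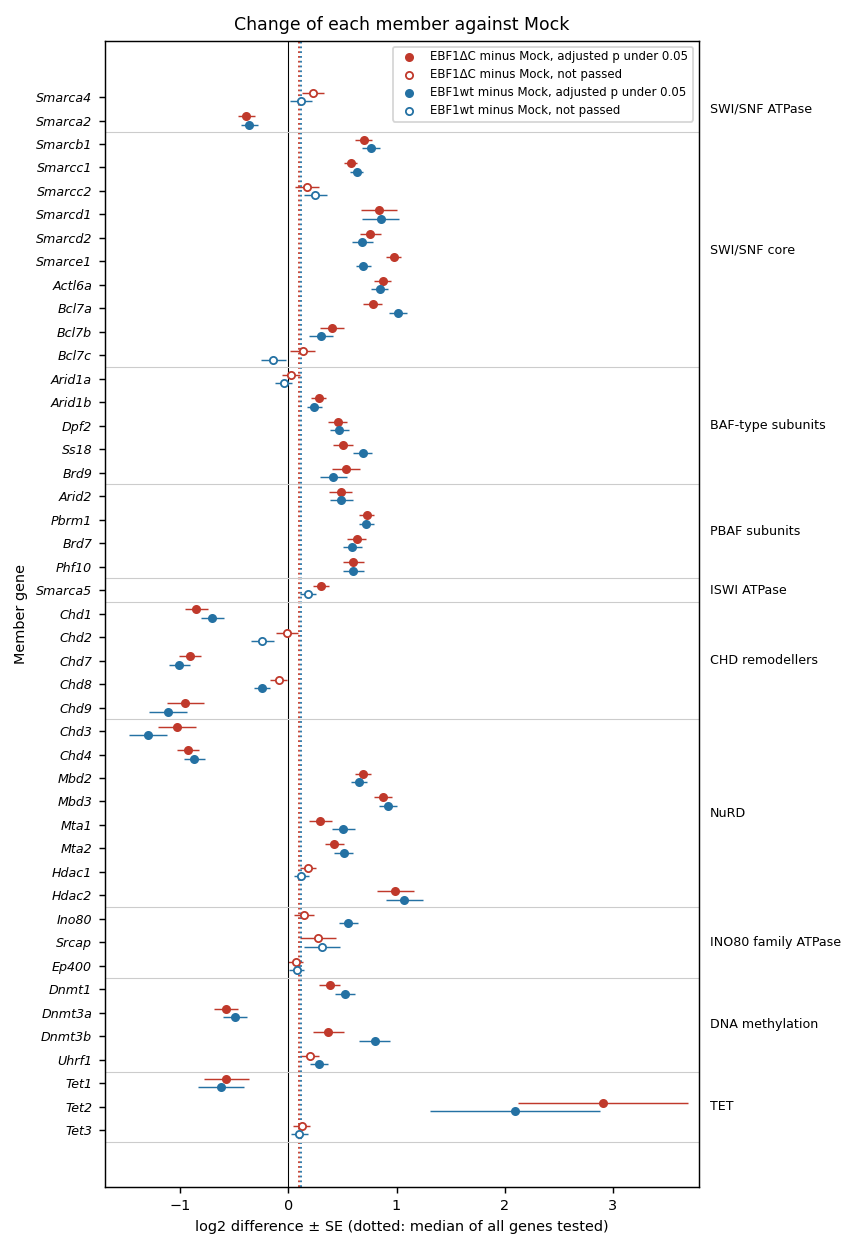
Log2 change against Mock with its SE for each of the 45 genes, by role, with EBF1ΔC and EBF1wt drawn separately, filled points passing at an adjusted p under 0.05 and dotted lines at the median of all genes. SWI/SNF core and PBAF subunits lie mostly to the right of 0, and Chd3, Chd4, Chd7, Chd9 and Chd1 lie furthest to the left, although under scaling to the median only Chd3 in EBF1wt still passed and Chd1 in EBF1wt was at -0.0021.

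The CHD remodellers outside NuRD lay on the lower side. Of 5 measured, 3 were lower than in Mock in EBF1ΔC and 4 in EBF1wt, and none was higher. Of all genes, 26.8% were lower in EBF1ΔC and 27.1% in EBF1wt. Under scaling to the median, however, Chd8 turned to 0.46 in EBF1wt and Chd1, Chd7 and Chd9 no longer passed. Chd7, mutated in human CHARGE syndrome, read 2.72, 2.68 and 2.72 in EBF1ΔC and 2.44, 2.69 and 2.70 in EBF1wt, against 3.48, 3.71 and 3.67 in Mock. No EBF1 array reached the lowest Mock array, the changes were -0.91 (SE 0.10, adjusted p = 9.22e-05) and -1.01 (SE 0.10, adjusted p = 5.07e-05), and all 3 of its probes were lower.

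Chd9 read -0.19, -0.23 and -0.17 in EBF1ΔC and -0.53, -0.38 and -0.17 in EBF1wt, against 0.33, 0.93 and 1.00 in Mock. The groups did not overlap Mock, with changes of -0.95 (SE 0.17, adjusted p = 0.00158) and -1.11 (SE 0.17, adjusted p = 0.000644). Its 6 probes did not agree, since the 3′-most one was higher by 0.34 in EBF1ΔC and by 0.39 in EBF1wt. Chd1, which binds methylated lysine 4 of histone H3 and acts in transcribed genes, fell by 0.85 (SE 0.11, adjusted p = 0.000199) and 0.71 (adjusted p = 0.000517). Chd8 changed by -0.09 in EBF1ΔC, which did not pass, and by -0.25 (adjusted p = 0.0187) in EBF1wt, a call lost without EBF1wt replicate 2 (adjusted p = 0.0529), Mock replicate 2 (0.0607) or Mock replicate 3 (0.0626). The other Chd8 probe, on a sequence outside RefSeq, was lower in both, by -1.37 (adjusted p = 2.88e-05) and -1.49 (adjusted p = 1.82e-05). Chd2 changed by -0.01 and -0.24 and did not pass. Relative to the median of all genes, Chd1, Chd7 and Chd9 lay between -1.16 and -0.95 in EBF1ΔC and between -1.29 and -0.83 in EBF1wt under all 5 scalings tried.

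Among 8 NuRD genes the motors and the other subunits moved apart. Against Mock, 37.4% of all genes were higher and 26.8% lower in EBF1ΔC, and 39.5% and 27.1% in EBF1wt. Of the 8 NuRD genes, 5 were higher and 2 lower in both comparisons. The lower ones were the motors Chd3 and Chd4, which remained below the median of all genes under all 5 scalings, by 0.99 or more on the log2 scale, although Chd4 in both comparisons and Chd3 in EBF1ΔC no longer passed under scaling to the median. Chd3 read 3.13, 3.22 and 2.78 in EBF1ΔC and 2.48, 3.12 and 2.73 in EBF1wt, against 3.98, 4.02 and 4.23 in Mock. Every EBF1 array was below every Mock array, with changes of -1.03 (SE 0.18, adjusted p = 0.00109) and -1.30 (SE 0.18, adjusted p = 0.000293), and all 4 probes of Chd3 were lower. Chd4 read 3.64, 3.54 and 3.48 in EBF1ΔC and 3.42, 3.68 and 3.73 in EBF1wt, against 4.45, 4.43 and 4.56 in Mock, again with no overlap, and changed by -0.93 (SE 0.10, adjusted p = 8.15e-05) and -0.87 (adjusted p = 0.00011).

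Chd4 shows how far the probe matters. Its 3 exonic probes lie on the plus strand of chromosome 6 and are given here from the 5′ to the 3′ end because their changes run from lower to higher along the mRNA.
Chd4, 5′-most probe, chr6:125047264-125050525 (mm9, plus strand): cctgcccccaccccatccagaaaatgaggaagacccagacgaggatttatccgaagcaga
Chd4, middle probe, chr6:125064080-125064139 (mm9, plus strand): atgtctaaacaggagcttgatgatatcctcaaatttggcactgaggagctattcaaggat
Chd4, 3′-most probe, chr6:125073647-125078816 (mm9, plus strand): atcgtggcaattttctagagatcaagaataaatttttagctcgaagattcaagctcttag
The first is the probe of highest signal described above. The middle probe changed by -0.27 in both EBF1ΔC and EBF1wt (adjusted p = 0.128 and 0.127) and the 3′-most one by 0.17 and 0.25 (adjusted p = 0.162 and 0.0531), so neither passed. The 3′-most probe read 1.19, 1.197 and 1.26 in EBF1ΔC and 1.19, 1.29 and 1.41 in EBF1wt, against 1.21, 1.02 and 0.89 in Mock.

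Hdac2, a deacetylase of NuRD and other complexes, was the NuRD gene that rose most in both comparisons. It read -2.53, -2.47 and -2.01 in EBF1ΔC and -2.13, -2.18 and -2.47 in EBF1wt, against -3.20, -3.59 and -3.20 in Mock. No array overlapped Mock, and the changes were 0.99 (SE 0.17, adjusted p = 0.00117) and 1.07 (SE 0.17, adjusted p = 0.000729). Hdac2 passed under all 23 alternatives, but its change fell to as little as 0.50 in EBF1ΔC and 0.58 in EBF1wt. The changes of Mbd3 stayed at 0.71 and 0.74 or more, so the rank of Hdac2 depends on the processing. Mbd3, the methyl-binding-domain protein that defines one form of NuRD, read 2.42, 2.34 and 2.37 in EBF1ΔC and 2.52, 2.39 and 2.37 in EBF1wt, against 1.63, 1.41 and 1.48 in Mock, a change of 0.87 (SE 0.08, adjusted p = 4.7e-05) and 0.92 (adjusted p = 3.27e-05). Mbd2, which binds methylated DNA and defines the other form, rose by 0.69 and 0.65, Mta2 by 0.42 and 0.51 and Mta1 by 0.29 and 0.51. Hdac1 changed by 0.18 and 0.12 and did not pass. Its only probe is placed by the files on chromosome 17 on a sequence outside RefSeq, while the gene table has Hdac1 on chromosome 4, so that this value may not be of Hdac1. The other 104 probes are placed on the chromosome of their gene.

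Among the INO80-type motors, which exchange or evict histone variants, Srcap (0.27 in EBF1ΔC and 0.31 in EBF1wt) and Ep400 (0.07 and 0.08) did not pass at their probes of highest signal. The 5′-most Ep400 probe was lower in both, by -0.70 (adjusted p = 0.00108) and -0.68 (adjusted p = 0.00126). The next tested Ep400 probe was also lower, by -0.63 (adjusted p = 0.00185) and -0.78 (adjusted p = 0.000599). Another Srcap probe was lower in EBF1ΔC, by -0.69 (adjusted p = 0.0189). Ino80 changed by 0.14 (adjusted p = 0.183) in EBF1ΔC and rose by 0.55 (SE 0.09, adjusted p = 0.000742) in EBF1wt. That value is of its 3′-most probe, and the middle probe was lower in both, by -0.59 (adjusted p = 0.0117) and -0.49 (adjusted p = 0.0265).

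The DNA methyltransferases split. Dnmt1 rose by 0.38 (SE 0.10, adjusted p = 0.00829) in EBF1ΔC and by 0.52 (adjusted p = 0.00157) in EBF1wt. Uhrf1, which brings Dnmt1 to replicated DNA, changed by 0.20 (adjusted p = 0.0745) in EBF1ΔC and rose by 0.28 (adjusted p = 0.0173) in EBF1wt. Its other probe was higher in both, by 0.32 (adjusted p = 0.0236) and 0.40 (adjusted p = 0.0086). Dnmt3b read -0.08, 0.01 and -0.06 in EBF1ΔC and 0.22, 0.72 and 0.24 in EBF1wt, against -0.31, -0.33 and -0.59 in Mock. Its arrays did not overlap between any of the groups, and it rose by 0.37 (SE 0.14, adjusted p = 0.0483) in EBF1ΔC and by 0.80 (adjusted p = 0.00128) in EBF1wt. Dnmt3a fell by 0.57 (SE 0.11, adjusted p = 0.00207) and 0.50 (adjusted p = 0.00407), but was 0.21 higher in EBF1wt under scaling to the median, and its other 2 probes did not pass. Beside these, a list of 22 DNA replication genes had 16 higher in EBF1ΔC and 17 in EBF1wt and none lower. Of all genes, 37.4% and 39.5% were higher. The part of replication in the values of Dnmt1 and Uhrf1 was not tested.

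Tet2, an enzyme that oxidises methylated cytosine, gave a large but uncertain change. Its probe of highest signal read -3.55, -3.36 and -3.22 in EBF1ΔC and -3.78, -5.18 and -3.62 in EBF1wt, against -7.40, -4.24 and -7.23 in Mock. EBF1ΔC did not overlap Mock, while EBF1wt replicate 2 lay below Mock replicate 2, the only Mock array on which the probe was well above background. The fitted change was 2.91 (SE 0.79, adjusted p = 0.0112) in EBF1ΔC and 2.10 (SE 0.79, adjusted p = 0.0424) in EBF1wt. Since the probe was tested because of its signal in the EBF1 groups, and 2 of the 3 Mock values are not well above background, neither the size nor the p of this change is firm.

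The change of Tet2 passed in EBF1ΔC under each of 22 alternatives, but its size fell to 0.53 in EBF1ΔC and 0.36 in EBF1wt in the authors' values, and to 0.61 and 0.41 with normexp background correction and quantile normalization, all under 2-fold. In EBF1wt it no longer passed without Mock replicate 1 (1.54, adjusted p = 0.14), without Mock replicate 3 (1.63, adjusted p = 0.142), without EBF1wt replicate 1 (1.89, adjusted p = 0.108) or without EBF1wt replicate 3 (1.81, adjusted p = 0.116). Leaving out any single EBF1ΔC array, which changes only the spread, also left it short of the threshold (adjusted p from 0.0554 to 0.059). A second Tet2 probe read -4.54, -4.13 and -4.49 in EBF1ΔC and -4.70, -7.39 and -4.32 in EBF1wt, against -7.78, -7.38 and -7.09 in Mock, where it was well above background on no array. Its signal was at least 2.05-fold higher in EBF1ΔC than in Mock, the bound being taken against the lowest signal well above background on each Mock array, and no bound above 1 could be given for EBF1wt, where 2 of 3 arrays measured it.

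The other TET genes differed less. Tet1 fell by 0.57 (SE 0.21, adjusted p = 0.0405) in EBF1ΔC and by 0.63 (adjusted p = 0.0277) in EBF1wt, with signals of -4.25, -3.64 and -4.42 in EBF1ΔC and -4.24, -3.84 and -4.40 in EBF1wt, against -3.60, -3.56 and -3.43 in Mock. The groups did not overlap, but the sign turned under quantile normalization in EBF1wt (0.01), with normexp background correction and quantile normalization (0.08 in EBF1ΔC and 0.07 in EBF1wt), in the authors' values (0.07 and 0.05), and under scaling to the median in EBF1wt (0.08). The call was also lost in EBF1wt without any one Mock array or without EBF1wt replicate 1 or 3 (changes from -0.66 to -0.50, adjusted p from 0.0514 to 0.0907), and in EBF1ΔC without any one Mock array, EBF1ΔC replicate 1 or 3, or EBF1wt replicate 1 (changes from -0.61 to -0.41, adjusted p from 0.0534 to 0.126). Tet3 changed by 0.12 and 0.10 at its probe of highest signal and did not pass. Its other 2 probes were lower in EBF1wt, by -0.80 (adjusted p = 0.00123) and -0.67 (adjusted p = 0.00474). In EBF1ΔC these probes changed by -0.16 and -0.37 and did not pass.

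**Figure D3:**
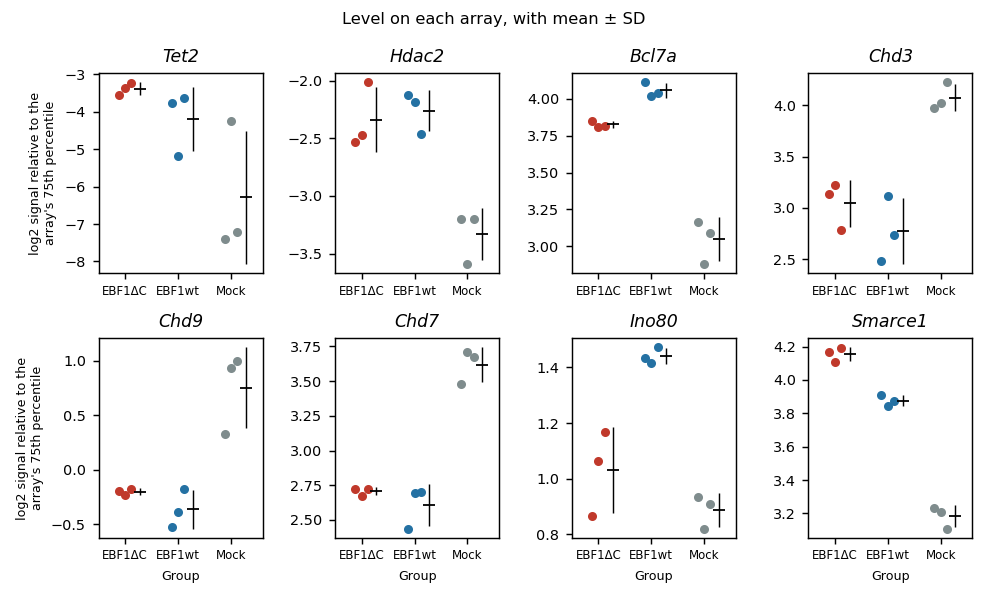
Log2 signal relative to the array's 75th percentile on each array (points) with mean and SD over 3 arrays for Tet2, Hdac2, Bcl7a, Chd3, Chd9, Chd7, Ino80 and Smarce1, with EBF1ΔC left of EBF1wt and Mock. Hdac2 and Bcl7a lie above Mock and Chd3, Chd9 and Chd7 below it on all 6 EBF1 arrays, and the Mock arrays of Tet2 spread from -7.40 to -4.24.

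Disagreement between probes was not confined to Chd4 and Smarca4. Of 28 genes with at least 2 probes tested, probes passed in opposite directions for 4 in EBF1ΔC against Mock (Actl6a, Brd7, Chd9 and Smarce1) and for 6 in EBF1wt against Mock (these and Dpf2 and Ino80), but for 0 between EBF1ΔC and EBF1wt. Of 5361 genes with at least 2 probes in the whole data set, 11.9%, 13.0% and 0% had such probes in these 3 comparisons. All tested probes of Chd1, Chd3, Chd7 and Smarca2 passed as lower in EBF1ΔC, and all those of Chd3, Chd7, Chd8 and Smarca2 in EBF1wt. All tested probes of Arid1b, Mta2, Pbrm1, Smarcc1 and Tet2 passed as higher in both. Of the 100 probes, 43 were higher and 27 lower in EBF1ΔC, and 44 higher and 29 lower in EBF1wt, where of all probes 33.9% and 30.8%, and 35.3% and 31.6%, did so.

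For 21 of the genes, probes on RefSeq mRNAs lay at least 1000 bases apart on the genome. In 17 of these 21 in EBF1ΔC and in 15 in EBF1wt the 5′-most probe had the lower change against Mock, and the median difference, 5′ minus 3′, was -0.33 and -0.49. Among 3260 other genes 61.5% and 62.5% had the lower change at the 5′ end, with medians of -0.15 and -0.17. Between EBF1ΔC and EBF1wt the median difference was -0.02 for these 21 genes and 0.02 for the others. Over 3281 genes the signal of the 3′-most probe exceeded that of the 5′-most by a median of 1.75, 1.75 and 1.72 in EBF1ΔC and 1.74, 1.79 and 1.76 in EBF1wt, against 1.62, 1.49 and 1.49 in Mock. The part of this difference between arrays in the changes of single genes was not tested. The 3′-most RefSeq probe for each gene was a choice made after these disagreements were seen. With it, 27 of 43 genes were higher and 5 lower in EBF1ΔC, and 30 higher and 6 lower in EBF1wt. Of all 10992 genes with such a probe, 4439 were higher and 2642 lower in EBF1ΔC, and 4688 and 2648 in EBF1wt. Chd4 and Chd9 took the opposite sign.

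**Figure D4:**
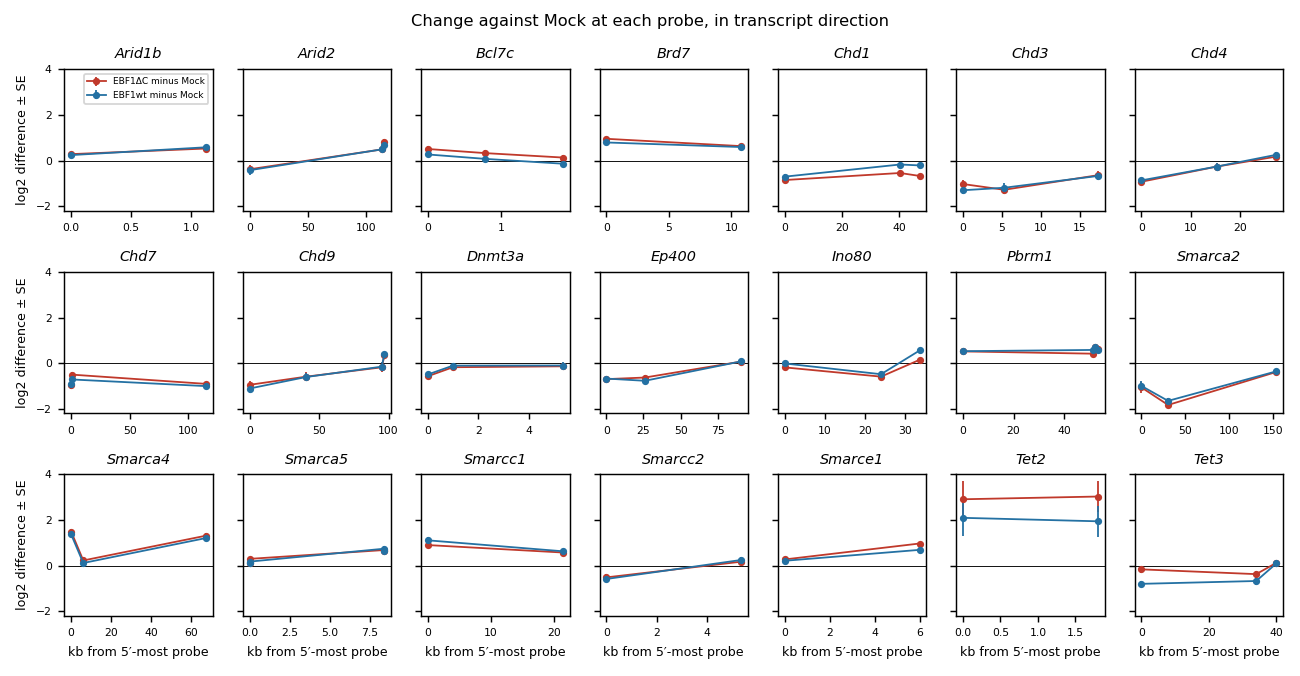
Log2 change against Mock of each RefSeq probe by its distance in kilobases from the gene's 5′-most probe, for the 21 genes with probes at least 1000 bases apart and for EBF1ΔC and EBF1wt separately. Chd4 runs from -0.93 to 0.17 in EBF1ΔC along the gene, while all probes of Chd3 and Chd7 stay below 0.

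EBF1ΔC and EBF1wt differ in the C-terminal domain, but the Ebf1 probe also read higher on every EBF1ΔC array than on any EBF1wt array. The part of that level in the differences below was not tested. Between these groups, few of the 45 genes differed. Of 45, 1 was higher and 1 lower in EBF1ΔC, and 0 also changed by at least 2-fold. Of all genes 4.08% were higher and 4.95% lower, and 1.39% and 1.33% past 2-fold. At an unadjusted p under 0.05 there were 5 of 45 (limma), against 25.2% of all genes. The median log2 change was -0.00 against -0.01 over all genes, and the groups' arrays did not overlap in 14 genes, 6 higher and 8 lower, while 30.7% of all genes did not overlap. The 95% intervals of 41 of the 45 differences, unadjusted, lay within 1.5-fold in either direction. The exceptions were Ino80, Dnmt3b, Chd3 and Tet2. Markers of other cell types also differed between these groups. The summed level of 8 myeloid markers was 8.01 to 15.6 in EBF1ΔC, against 0.570 to 2.80 in EBF1wt, mostly from Lyz2. Mpo and Elane were well above background on no array. In Mock this summed level was 6.29 to 6.98, mostly from Fcgr1, with Lyz2 at log2 signals of only -1.73, -1.25 and -1.74. That of 10 T and NK cell markers was 6.12 to 7.87 in EBF1ΔC, against 1.91 to 3.44 in EBF1wt, mostly from Klrd1, with Cd4 and Cd8a well above background on no array, and it was 3.69 to 4.37 in Mock. Their part in the differences below was not tested.

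Ino80, the motor of the INO80 complex, was the lower one. It read 0.86, 1.06 and 1.17 in EBF1ΔC, against 1.43, 1.42 and 1.47 in EBF1wt, with no overlap, a change of -0.41 (SE 0.09, adjusted p = 0.0273). Within the 2 slides that held both groups, 1 array of each, the difference was -0.25 and -0.61. Its other probes did not pass between these groups.

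Smarce1 was the higher one. It read 4.16, 4.11 and 4.19 in EBF1ΔC, against 3.91, 3.84 and 3.87 in EBF1wt, again with no overlap, a change of 0.28 (SE 0.07, adjusted p = 0.0383), and 0.35 and 0.29 within slides. Adjusted over all probes, this Smarce1 probe did not pass (adjusted p = 0.0644). The other RefSeq probe of Smarce1 changed by 0.06 (adjusted p = 0.718) and those outside RefSeq by 0.27 to 0.30, and none passed. Neither the call of Ino80 nor that of Smarce1 was firm. That of Smarce1 was lost without any one of the 9 arrays (0.26 to 0.30, adjusted p from 0.0517 to 0.104), and that of Ino80 without EBF1ΔC replicate 1 or 2 or any one EBF1wt array (-0.425 to -0.325, adjusted p from 0.0566 to 0.0719).

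Dnmt3b was lower in EBF1ΔC on every array, with -0.77 and -0.31 within slides, but its change of -0.43 (SE 0.14, adjusted p = 0.102) did not pass. Bcl7a changed by -0.23 (adjusted p = 0.138), Bcl7c by 0.27 (adjusted p = 0.194), Chd3 by 0.27 (adjusted p = 0.384) and Tet2 by 0.81 (SE 0.79, adjusted p = 0.573), whose 95% interval ran from -0.99 to 2.62. Over single probes, 1 of Tet3 was higher (0.63, adjusted p = 0.039) and 2, of Chd1 (-0.46, adjusted p = 0.016) and of Ino80, were lower, out of 100, against 2.73% higher and 2.85% lower of all probes. The 4 PBAF subunits differed by between -0.00 and 0.04.

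**Figure D5:**
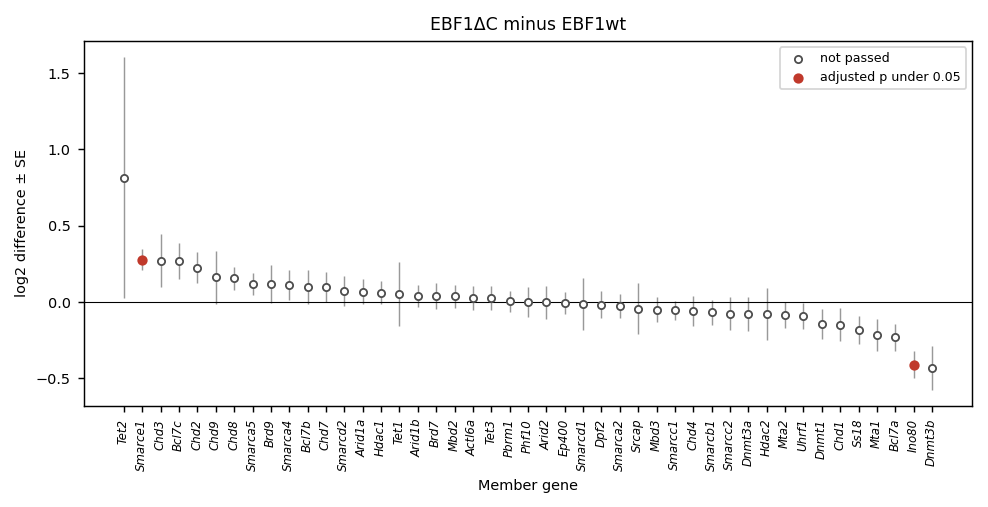
Log2 change in EBF1ΔC relative to EBF1wt with its SE for each of the 45 genes, in order of size, with filled points for the 2 that passed at an adjusted p under 0.05. The points of 43 genes are open, Tet2 has the widest error, and Ino80 at -0.41 and Smarce1 at 0.28 are filled.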

How the data were processed

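Total RNA, labelled with Cy3, was hybridised to Agilent 4x44K arrays in 1 colour. The spot intensity used is the scanner software's processed signal, which is background-subtracted and not normalized between arrays per the file headers. Mean and background intensity per spot, deposited in the same files, gave an alternative. Feature Extraction is version 10.5.1.1 in the headers and 9.1 in the submitters' processing notes. The authors also deposited log2 values whose scale and centring are not stated. They correlated at r = 0.999 on each array with normexp-corrected (offset 50), quantile-normalized log2 signal, had a median of 6.74 on each array and gave another alternative. Positions are as in the files (mm9).

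Control and outlier spots were left out. The log2 processed signal was taken relative to each array's 75th percentile, and spots of a probe were averaged. Only probes that at least 1 group had well above background throughout were kept, and the probe of highest mean stood for its gene. RefSeq or Ensembl accessions named 27479 probes, symbols 5478 and synonyms 679, while 1245 kept the files' name and 6293 were unnamed. A single limma model over all 9 arrays had a mean per group and 6 residual degrees of freedom (R 4.3.3 with statmod 1.5.0, limma 3.58.1 and the data.table package at 1.17.8). Its two-sided moderated tests were adjusted by Benjamini-Hochberg over 12046 genes, or over 22355 probes where values are of single probes, and passed at an adjusted p under 0.05. The steps were tested on simulated data.

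Groups follow the sample titles. The genes and lists were chosen with earlier results of these data known. By rule, all genes past 2-fold were named, then up to 12 in each direction by size, with their complex or family, and up to 8 a comparison with values per array. Other values per array and the probes whose sequences are printed were chosen after their values were seen. Alternatives covered background correction, scaling, filters, probe choice, blocks, weights and left-out arrays.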

Additional observations from a re-analysis of the deposited data

Results flagged for a closer look

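The changes of EBF1ΔC and EBF1wt relative to Mock differed for 2 of the 45 genes. The test is the comparison of EBF1ΔC with EBF1wt given above, in which 4.08% of all genes were higher and 4.95% lower. For Ino80 the difference, EBF1ΔC minus EBF1wt, was -0.409 on the log2 scale (limma, adjusted p = 0.0273), with a change against Mock of 0.14 in EBF1ΔC and 0.55 in EBF1wt. For Smarce1 it was 0.279 (limma, adjusted p = 0.0383), with 0.97 in EBF1ΔC and 0.69 in EBF1wt. Both sets of 3 EBF1ΔC arrays lay apart from the 3 EBF1wt arrays. With 3 arrays a group, no formal test was made for single arrays standing apart. Fitted array weights were lowest for EBF1wt replicate 2 (0.37) and EBF1ΔC replicate 3 (0.51), against 0.76 to 1.46 for the other arrays. With both left out, a setting added after seeing the data, Smarce1 no longer passed between EBF1ΔC and EBF1wt, while Ino80 did.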

How the results depend on the processing

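Between EBF1ΔC and EBF1wt the 1 higher and 1 lower gene became 0 and 0 under scaling to the median, with no filter on dim probes, with a replicate block, with only the 2 groups compared, with slide as a fixed block (2 residual degrees of freedom) and at an adjusted p under 0.01, and 1 and 0 with probes averaged per gene. With probes averaged, neither Smarce1 nor Ino80 passed, so the higher gene there was another member. With the 3′-most RefSeq probe, added after seeing the data, there were 1 and 2. Leaving out single arrays gave 0 to 0 higher and 0 to 1 lower. Smarce1 passed in 8 of 24 alternatives and Ino80 in 13 of 24, with no change of sign. The single-probe counts became 0 and 0 with no filter. Over all genes, 1088 passed in this comparison, but 677 with a replicate block, 484 with only the 2 groups, 143 with slide as a fixed block, 521 under scaling to the median, 436 with no filter and 511 without EBF1ΔC replicate 2.

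Against Mock, leaving out single arrays gave 23 to 25 higher and 7 to 8 lower genes in EBF1ΔC, and 23 to 26 and 7 to 9 in EBF1wt. Under scaling to the median there were 37 higher and 0 lower in EBF1ΔC, and 36 and 1 in EBF1wt, with the sign turned for Smarca2 (0.16 in EBF1ΔC, 0.34 in EBF1wt) and, in EBF1wt, Tet1 (0.0778), Dnmt3a (0.21) and Chd8 (0.46). The 3′-most RefSeq probe left 5 lower genes in EBF1ΔC and 6 in EBF1wt and turned Chd9 (0.34 and 0.39) and Chd4 (0.17 and 0.25). The mean of probes turned Smarce1 (-0.0001 and -0.24). Tet1 turned with normexp and quantile normalization (0.0757 and 0.0737), in the authors' values (0.0702 and 0.0477) and, in EBF1wt, under quantile normalization (0.014). The cause of these changes was not tested. Of all outcomes for the named genes 899 kept their call, 74 lost it and 16 turned. Same-numbered samples deviated together at r from -0.177 to 0.122, so the numbers do not pair the samples. The replicate block lost the calls of Smarce1 and Ino80 between EBF1ΔC and EBF1wt, and of Tet2 in EBF1wt against Mock. Signal near background limits Tet1 and Tet2.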

Other observations

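Other chromatin regulators, 79 tested genes from lists of partner subunits, DNA methylation readers and Polycomb genes, also differed from Mock in both directions. In EBF1ΔC 46 were higher and 10 lower than in Mock (limma, adjusted p under 0.05), and in EBF1wt 44 were higher and 11 lower, where 37.4% and 26.8%, and 39.5% and 27.1%, of all genes were. The median log2 changes were 0.35 and 0.31, against 0.10 and 0.12 over all genes. Cecr2, a partner of ISWI motors, rose by 2.01 in EBF1ΔC and by 1.85 in EBF1wt. Of 16 Polycomb genes, 9 were higher in both, among them Cbx2 (1.101 and 1.29), a chromobox reader of methylated histone H3. Chd5, a NuRD motor best known from neurons, fell by 2.56 and 1.94, and Mbd4, a glycosylase that removes thymine from mismatches at methylated sites, fell by 1.72 and 1.95. Between EBF1ΔC and EBF1wt, 3 of the 79 passed, against 4.08% of all genes higher and 4.95% lower. Mta3, a NuRD subunit of B cells (0.91), and Gadd45b (0.88) were higher, and Dpf1 (-1.14) was lower.

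The palindromic EBF1 motif, which reads the same on both strands, was in 0 of the 46 promoter windows held for 37 of the genes (RefSeq, GRCm38.p6, 250 bases before to 50 after the start). Of all 32851 windows of that length 0.904% held it, so these letters are rare in any promoter window.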
